A study of Mus musculus with 18 samples.

Results

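Translational efficiency (TE), the amount of ribosome-protected mRNA relative to total mRNA of a gene, was compared between mesoderm and forelimb bud (FL) from E11.5 mouse embryos over the 11054 genes found in both deposited tables. These were all genes with a shared UCSC identifier, out of 12241 genes in either table. Of the remaining genes, 1010 were listed only with the mesoderm and 177 only with the neural tube (NT) and FL. No expression value was used here to choose the shared genes. At most 1 of them had 10 or fewer reads in any mesoderm or FL RNA-Seq library. Genes with almost no RNA-Seq reads were thus nearly absent from the shared set, but genes of low expression were not. In single Ribo-Seq libraries, 111 to 159 genes had 10 or fewer reads in the mesoderm and 72 to 171 in FL. A mean of at least 100 normalized reads was reached by 9801 of the 11054 genes. Each tissue had 3 replicates with a Ribo-Seq and an RNA-Seq library each, so that 6 pairs from 12 libraries entered the comparison.

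The mesoderm samples were GFP+ cells sorted from embryos that carried the reporter R26-mTmGflox/+ together with the transgene Tg(T-cre)1LWD/J/+ and were dissociated with trypsin in the presence of cycloheximide. In this T-Cre; mT/mG reporter, Cre activity in cells of the primitive streak switches their descendants from a red to a green membrane label, so the sort collects paraxial, lateral plate and intermediate mesoderm, the limb mesenchyme included. FL samples were buds microdissected from embryos of the FVB strain, also under cycloheximide, and were not sorted. They therefore hold limb mesenchyme, which is itself lateral plate mesoderm, together with ectoderm, endothelium and blood. Tissue, strain, reporter alleles, sorting and dissociation all change together between these groups and cannot be told apart in any difference below. The same holds for the 2 tables, which were normalized separately, so TE and not mRNA was compared between tissues.

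Ribo-Seq reads the fragments of mRNA that a translating ribosome shields from nuclease, and RNA-Seq of the same sample gives the amount of mRNA that was there to be translated. Their ratio therefore describes how heavily an average transcript of a gene is loaded with ribosomes. It can differ between genes through initiation, through elements of the 5′UTR such as upstream open reading frames, and through the time ribosomes spend on the coding sequence (CDS). Growth factors, hedgehog proteins and Wnts act on the mesoderm and the limb bud through receptors, second messengers and kinase cascades, while Hox proteins record position along the body and limb axes. TE is given here as log2(RPF + 1) − log2(RNA + 1) of the normalized reads, where RPF stands for ribosome-protected fragments. In each pair the median over the shared genes was set to 0. A value of −1 thus means a ribosome load 2-fold below that of the median gene of the same pair. Differences are mesoderm minus FL.

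The libraries held 10906000 to 16696967 recovered Ribo-Seq reads on the shared genes in the mesoderm and 12956965 to 17218198 in FL, against 37733279 to 49769500 and 24528400 to 27963996 RNA-Seq reads. Limb mesenchyme genes were high in the RNA-Seq libraries of both tissues. Hoxd13, a homeobox gene of the distal limb, lay between the 94.9th and 97.0th percentile of genes in FL and between the 70.2nd and 83.4th in the mesoderm. Tcf15, a transcription factor of the somites, reached the 38.3rd to 52.8th percentile in the mesoderm and the 5.40th to 10.5th in FL. Epcam, a cell adhesion molecule of epithelia, was between the 36.6th and 43.7th percentile in FL and the 10.8th and 13.9th in the mesoderm. Only 3 of 11 limb mesenchyme, 2 of 9 somite and muscle, 2 of 13 ectoderm and 0 of 6 kidney and lateral mesoderm markers could be found, since few genes carry a symbol. The embryonic globin gene Hba-x gave 13021 to 23440 normalized reads in FL and 2250.5 to 12367 in the mesoderm, so transcripts of blood cells were present in both. In such bulk samples, fewer cells of a type and less RNA per cell cannot be told apart. The part of these other cell types in any difference in TE was not tested.

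The order of genes by TE was largely shared by the mesoderm and FL. Mean log2 TE of the 3 mesoderm pairs and that of the 3 FL pairs had a Pearson correlation of 0.93 across the 11054 genes, which are not independent replicates. Single pairs did not, however, fall into 2 groups by tissue. FL replicates 1 and 2 resembled each other with r = 0.94, whereas FL replicate 3 gave r = 0.76 and 0.78 with them. The same pair gave r = 0.89, 0.79 and 0.86 with mesoderm replicates 1, 2 and 3. Mesoderm replicates resembled each other with r = 0.85 to 0.93, and mesoderm replicate 2 gave r = 0.90 with each of FL replicates 1 and 2.

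The difference of FL replicate 3 was in its Ribo-Seq library. Its RPFs correlated with those of FL replicates 1 and 2 with r = 0.88 and 0.89, and with those of mesoderm replicates 1, 2 and 3 with r = 0.95, 0.89 and 0.95, while the 3 FL RNA-Seq libraries had r between 0.98 and 0.99. In the mesoderm, RNA-Seq replicate 1 stood somewhat apart, with r = 0.93 and 0.95 to replicates 2 and 3, which had r = 0.99 with each other. FL replicate 3 carried the genes that set FL apart from NT. The sorted mesoderm includes limb mesenchyme, so this comparison with NT cannot tell FL from mesoderm. The 101 genes with at least 8-fold more mRNA in FL than in NT had a median of 2343 normalized Ribo-Seq reads in it, compared with 2413 and 2918 in FL replicates 1 and 2 and 150.4 to 185.6 in NT. For 8699 genes (78.7%), TE in FL replicate 3 lay nearer to the mesoderm mean than to the mean of FL replicates 1 and 2. In mesoderm replicate 2, TE of 5774 genes (52.2%) lay nearer to FL replicates 1 and 2 than to mesoderm replicates 1 and 3.

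TE was spread widely over genes in both tissues and the width differed between pairs. From the 5th to the 95th percentile, log2 TE ran from −2.06 to 1.16, −2.45 to 1.62 and −1.97 to 1.26 in mesoderm replicates 1 to 3. It ran from −2.92 to 2.09 and −2.81 to 2.04 in FL replicates 1 and 2, but only from −1.59 to 1.09 in FL replicate 3. The width was 3.51 ± 0.48 in the mesoderm and 4.18 ± 1.30 in FL (SD, n = 3; exact permutation test, two-sided p = 0.40, where the smallest possible p is 0.1). The widest and the narrowest of the 6 pairs were thus both from FL.

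**Figure D1:**
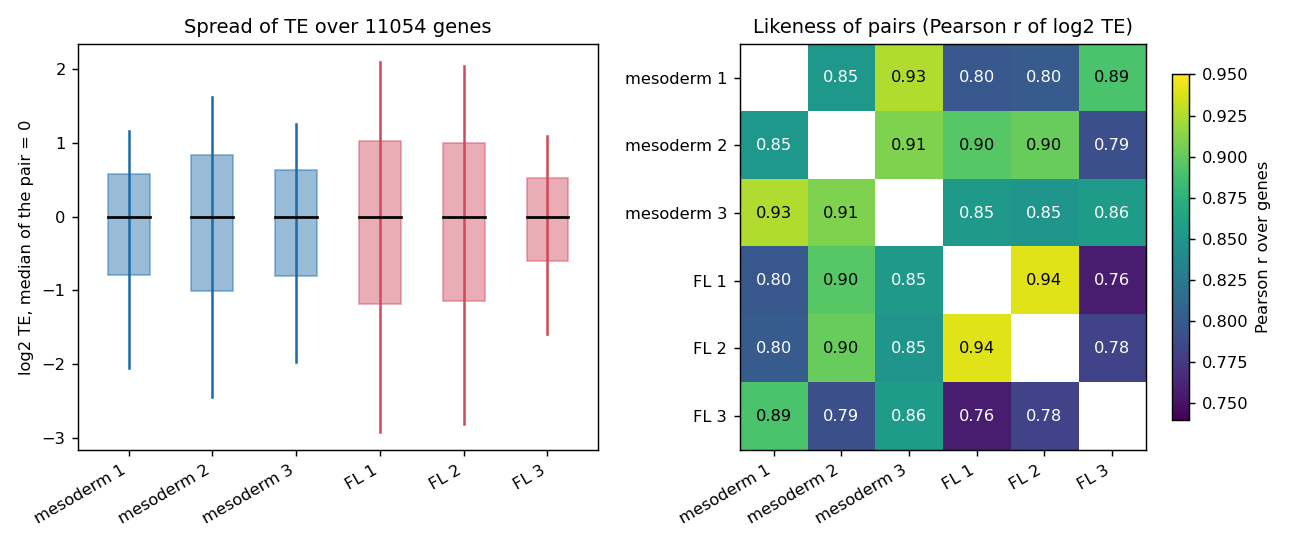
Left, log2 TE over the 11054 shared genes in each of the 6 pairs (boxes, 25th to 75th percentile; lines, 5th to 95th percentile; black bar, median, set to 0). Right, Pearson r of log2 TE between pairs across genes; FL 1 and FL 2 share r = 0.94, and FL 3 gives 0.76 and 0.78 with them and 0.89 with mesoderm 1.

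No gene passed the test for a difference in TE between the tissues (limma, adjusted p under 0.05 and at least 2-fold). Of 11054 genes tested, 0.0% were higher in the mesoderm and 0.0% higher in FL, and the smallest adjusted p was 0.765. An unadjusted p under 0.05 was reached by 608 genes (5.5%). Mean TE differed at least 2-fold in 218 genes towards the mesoderm (1.97%) and in 209 towards FL (1.89%), and the 3 mesoderm values lay wholly above the 3 FL values for 479 genes (4.33%) and wholly below for 713 (6.45%). The 95% confidence interval of a difference reached 0.77 on the log2 scale to either side for the median gene, which is less than a 2-fold difference. This interval is for a single gene and is not adjusted over the 11054 genes. A gene with a 2-fold difference could therefore still fail the adjusted test. The median SD between replicates was 0.30 in the mesoderm and 0.48 in FL, against a median absolute difference of 0.30 between the tissues.

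This count depended on FL replicate 3. With that pair left out, 799 genes (7.23%) were called higher in the mesoderm and 669 (6.05%) higher in FL, and 4235 had an unadjusted p under 0.05. That fit compares 3 mesoderm pairs with the 2 FL pairs that are most alike of all, and the choice of the pair to leave out was made after its values were seen. It also compares pairs of unequal width. With the width of all pairs made equal and FL replicate 3 left out, 117 and 146 genes were called. Leaving out any of the other 5 pairs left 0 genes in each direction. On the recovered reads of all 12 libraries, edgeR called 0 genes (606 at an unadjusted p under 0.05), and DESeq2 called 1 gene in each direction (740 at an unadjusted p under 0.05): Hoxd4, higher in the mesoderm, and uc009fys.1, a gene whose symbol is not given here, higher in FL. Counts of calls made without FL replicate 3 are given below for each list as a description, to be read beside these shares, and the difference without it is given for the single genes whose value it moved most.

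Genes of low TE were to a large part the same in both tissues. Against the median of their own tissue, 1174 genes (10.6%) were TE-low in the mesoderm and 1496 (13.5%) in FL (limma, adjusted p under 0.05 and at least 3-fold). Of these, 1000 genes (9.05% of all) were TE-low in both, which is 85.2% of the mesoderm and 66.8% of the FL list. TE-high genes numbered 125 (1.13%) in the mesoderm and 665 (6.02%) in FL, with 87 in both, or 69.6% and 13.1% of the lists. No gene was TE-low in one tissue and TE-high in the other. The TE-high counts rested on single pairs. Without FL replicate 3, FL had 1391 TE-high genes, and without FL replicate 1 or 2 it had 378 or 396. Without mesoderm replicate 1 or 2 the mesoderm had 236 or 61. TE-low counts moved less, between 957 and 1218 in the mesoderm and between 1164 and 2002 in FL. A gene below the median in all 6 pairs was common, at 3700 genes (33.5%), as was one above it in all 6, at 3643 genes (33.0%).

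Components of cell signalling were described first, because the list of these genes is complete for the table regardless of how they behaved. The 146 members found here comprise 38 of 45 receptor tyrosine kinases, 25 of 31 Gpr receptors, 24 of 26 enzymes that make or release second messengers, 19 of 20 effectors that bind these messengers, and 40 of 43 members of the Ras and MAP kinase cascade. None passed the test between tissues. The median of the 146 differences was 0.09, compared with −0.04 over all genes, and was 0.33 without FL replicate 3, where 19 members were called higher in the mesoderm and 2 (1.37%) higher in FL, against 7.23% and 6.05% of all genes. The mesoderm values lay wholly above the FL values for 6 members (4.11%) and wholly below for 12 (8.22%), shares close to those over all genes. TE was below the median in all 6 pairs for 76 of the 146 (52.1%) and above it in all 6 for 19, against 33.5% and 33.0% of all genes.

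Receptor tyrosine kinases, which bind growth factors and ephrins at the cell surface, sat near or below the median. The median log2 TE of the 38 members was −0.11, −0.63 and −0.09 in the mesoderm pairs, and −1.07, −1.00 and 0.10 in the FL pairs. The FL values thus lay on both sides of those of the mesoderm. The median difference was 0.22 with 30 of 38 members positive, and it was 0.53 without FL replicate 3, where 11 members (28.9%) were called higher in the mesoderm and 0 in FL, against 7.23% and 6.05% of all genes. TE-low in both tissues were Aatk, Fgfr3 and Ryk, a receptor of Wnt ligands. Ryk, with −2.06, −2.60 and −2.21 in the mesoderm and −2.30, −2.28 and −2.15 in FL, had one of the steadiest low values of the group. Pdgfra, the PDGF receptor of mesenchyme, gave 0.68, 0.14 and 0.64 in the mesoderm and −1.19, −1.11 and 0.83 in FL, a difference of 0.98 that was 1.64 without FL replicate 3.

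The largest difference among the receptor tyrosine kinases was that of Epha7, an ephrin receptor (GRCm38 chr4:28813131-28967499, plus strand). Its log2 TE was 0.39, 0.15 and 0.41 in the mesoderm and −1.64, −1.50 and 0.44 in FL. FL replicates 1 and 2 lay below every mesoderm pair and FL replicate 3 above them all. The difference was 1.21 (95% confidence interval 0.05 to 2.37, limma adjusted p = 0.765), and 1.88 without FL replicate 3 (limma adjusted p = 0.00277). Behind these values stood 2012, 668 and 1087 Ribo-Seq reads in the mesoderm and 311, 266 and 1459 in FL. Kit, the receptor of stem cell factor, showed the same order, with 0.49, 0.44 and 0.55 against −1.05, −1.05 and 0.62, a difference of 0.99 that was 1.54 without FL replicate 3. Only Epha3 and Ntrk2, the receptor of brain-derived neurotrophic factor, lay wholly above FL in the mesoderm. Epha3 had 0.16, 0.16 and 0.04 in the mesoderm and −1.00, −1.07 and −0.19 in FL. Towards FL, the largest differences among receptors with enough reads were those of Flt4, the VEGF-C receptor of lymphatic endothelium, at −0.58 (95% confidence interval −1.23 to 0.07), and Csf1r, the macrophage colony-stimulating factor receptor, at −0.42, which was −0.63 without FL replicate 3.

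Gpr receptors, grouped here by gene name and many of them without a known ligand, had a low median TE in every pair. Their median log2 TE was −1.36, −1.49 and −1.26 in the mesoderm and −1.11, −1.27 and −0.69 in FL, and 11 of 25 were TE-low in the mesoderm, 10 in FL and 10 in both. This is 40.0% of the receptors against 9.05% of all genes. The median difference was −0.01. Without FL replicate 3, 0 members were called higher in the mesoderm and 1 (4.00%) in FL. The shares over all genes were 7.23% and 6.05%, so counts this small in 25 members do not set the group apart. Gpr153 was among the lowest, with −2.93, −3.56 and −2.54 in the mesoderm and −3.24, −2.83 and −1.28 in FL. Gpr126, an adhesion receptor, had the largest positive difference among members with enough reads, 0.70 (95% confidence interval −0.19 to 1.58), and Gpr27 the largest negative, −0.58 (−1.29 to 0.13). Gpr27 values were −1.43, −1.49 and −1.34 against −0.71, −1.28 and −0.54 and did not overlap.

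Enzymes that produce second messengers were of low TE as well. They comprise adenylyl cyclases, which make cyclic AMP, phospholipases C, which release inositol phosphates and diacylglycerol, and phosphoinositide 3-kinases. The median log2 TE of the 24 members was −1.35, −1.83 and −1.49 in the mesoderm and −2.49, −2.56 and −0.78 in FL. FL replicates 1 and 2 were below all mesoderm pairs and FL replicate 3 above them. TE-low were 10 members in the mesoderm, 16 in FL and 8 in both, against 10.6%, 13.5% and 9.05% of all genes. The median difference was 0.40, and 20 of 24 differences were positive; without FL replicate 3 it was 0.98 with 6 members called higher in the mesoderm and 0 in FL, against 7.23% and 6.05% of all genes.

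Adcy2, an adenylyl cyclase, had the largest difference of these enzymes at 1.26 (95% confidence interval −0.78 to 3.31). Its values were −1.50, −1.87 and −1.31 in the mesoderm and −4.97, −2.80 and −0.70 in FL, so the FL pairs alone covered more than 4 units. These FL values rested on 5, 33 and 177 Ribo-Seq reads, and the difference without FL replicate 3 was 2.32 (limma adjusted p = 0.0142). Adcy9 followed at 1.17 (−0.45 to 2.79), and at 2.01 without FL replicate 3 (limma adjusted p = 0.0147) on 10, 16 and 91 reads in FL. Plcg1, the phospholipase C downstream of receptor tyrosine kinases, gave −1.38, −2.88 and −1.84 in the mesoderm and −3.38, −3.29 and −0.68 in FL, a difference of 0.42 that was 1.30 without FL replicate 3. Regulatory subunits of phosphoinositide kinases did not follow these values. Pik3r1 stayed at the median, with 0.17, 0.38 and 0.13 against 0.07, 0.06 and −0.06. Pik3r2 had −1.48, −1.77 and −1.75 in the mesoderm and −1.27, −1.12 and −1.10 in FL, a difference of −0.50 (−1.04 to 0.03).

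Effectors that respond to the second messengers, by contrast, were loaded like the median gene in both tissues. These are subunits of protein kinase A, protein kinases C, Akt kinases and calmodulins. Their median log2 TE was 0.29, −0.23 and 0.05 in the mesoderm and −0.25, −0.32 and 0.25 in FL, and 0 of 19 were TE-low in the mesoderm and 1 in FL. The median difference was −0.05, and every member lay between −0.54 and 0.54. Without FL replicate 3 the median was −0.01 and 0 members were called in either direction, against 7.23% and 6.05% of all genes. Prkar1a, the main regulatory subunit of protein kinase A, gave 1.01, 0.78 and 0.86 in the mesoderm and 1.05, 0.89 and 0.81 in FL. Calm3, a calmodulin gene, had 1.15, 0.98 and 1.07 against 1.83, 1.29 and 1.08. The step from enzyme to effector was thus a rise in median log2 TE of over 1 unit in each of the 6 pairs.

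In the Ras and MAP kinase cascade, which carries growth factor signals from the membrane to the nucleus, the members spread widely and the medians of the 6 pairs were close. The median log2 TE of the 40 members was −0.49, −0.80 and −0.69 in the mesoderm and −0.71, −0.51 and −0.59 in FL, with a median difference of −0.16 and of 0.01 without FL replicate 3, where 2 members (5.00%) were called higher in the mesoderm and 1 (2.50%) in FL, against 7.23% and 6.05% of all genes. Map3k10, a mixed lineage kinase, had the lowest TE of the cascade, with −4.04, −4.95 and −3.78 against −3.73, −4.14 and −2.70. Grb2, the adaptor that links receptors to Ras, had 0.82, 1.27 and 1.11 against 2.13, 1.84 and 0.69. The kinase Araf differed little, by −0.28, but with no overlap between tissues.

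Map3k13, the leucine zipper kinase LZK, had the largest difference of the cascade towards the mesoderm (GRCm38 chr16:21794346-21933439, plus strand). Its log2 TE was −0.97, −1.10 and −1.02 in the mesoderm and −3.67, −2.83 and −1.33 in FL, and every FL value lay below the mesoderm values. The difference was 1.58 (95% confidence interval 0.23 to 2.93, limma adjusted p = 0.765) and 2.21 without FL replicate 3 (limma adjusted p = 0.0104), on 10, 10 and 44 Ribo-Seq reads in FL. Mapk15, an atypical MAP kinase, had the largest difference towards FL. It had under 100 normalized RNA-Seq reads in each mesoderm library, below the minimum for named genes, and was singled out after its values were seen. Its log2 TE was 0.22, 1.33 and 1.35 in the mesoderm and 3.10, 4.04 and 1.68 in FL, with a difference of −1.97 (limma adjusted p = 0.765), and of −2.60 without FL replicate 3 (limma adjusted p = 0.0036). The Ribo-Seq reads behind it numbered 71, 97 and 116 in the mesoderm and 826, 1167 and 331 in FL.

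**Figure D2:**
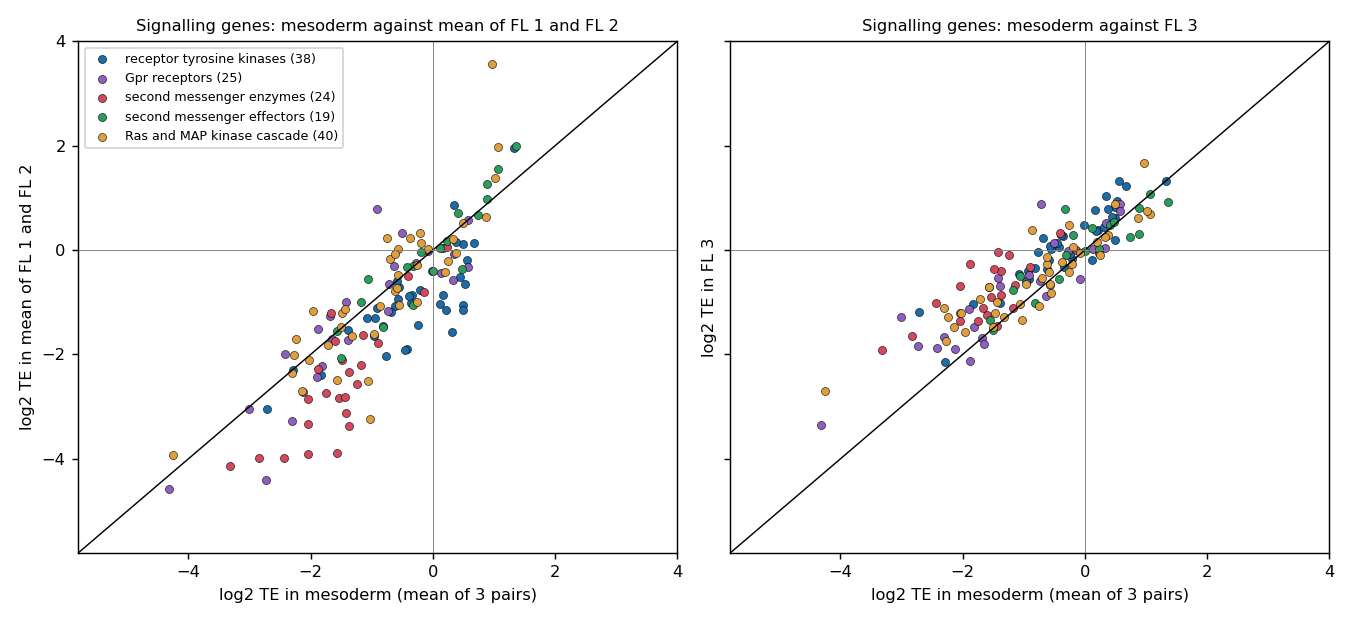
Log2 TE of the 146 signalling genes in the mesoderm (mean of 3 pairs, x axis) against FL 1 and FL 2 (mean, left) and FL 3 (right); colours mark the 5 groups and the line marks equal TE. Second messenger enzymes fall below the line on the left and above it on the right, and effectors stay near the line in both.

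The Sonic hedgehog (Shh) pathway acts through the primary cilium. Ptch1 is a receptor that holds Smo inactive, and the Gli transcription factors carry the signal to the nucleus. For this and the lists that follow, only genes with a symbol could be counted, and most of these have one because the study called their TE. Its calls include those of NT against FL, made on these same FL libraries. Counts of low or high TE are therefore no independent evidence. The same holds for the shares of members apart or called between mesoderm and FL, even beside the shares over all genes. Of 43 listed genes 17 were found. Their median log2 TE was −1.56, −2.13 and −1.46 in the mesoderm and −2.42, −2.31 and −0.88 in FL, and 10 were TE-low in both tissues.

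Core members of the pathway were of low TE in mesoderm and FL alike. Smo gave −1.64, −2.09 and −1.94 in the mesoderm and −2.19, −1.77 and −1.58 in FL, a difference of −0.04 (95% confidence interval −0.65 to 0.56) that was 0.09 without FL replicate 3. Gli1 gave −2.61, −2.66 and −2.48 in the mesoderm and −2.42, −2.22 and −1.79 in FL, with every FL value above those of the mesoderm and a difference of −0.44 (−1.05 to 0.17) that was −0.26 without FL replicate 3. Both genes were at least 2-fold below the median in all 6 pairs, FL replicate 3 included.

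Ptch1 and Gli3 followed the pattern of the pairs. Ptch1 had −1.57, −2.52 and −1.80 in the mesoderm and −3.56, −3.45 and −1.21 in FL. FL replicates 1 and 2 were lower than every mesoderm pair and FL replicate 3 was higher. Its difference was 0.78 (95% confidence interval −0.58 to 2.14) and 1.54 without FL replicate 3 (limma adjusted p = 0.00771). Gli3, which is processed into the repressor of the pathway, had −0.82, −2.13 and −1.25 against −2.87, −2.47 and −0.37, and its difference of 0.51 became 1.27 without FL replicate 3. In NT, which was dissected from the same embryos as FL, Ptch1 had −0.82, −0.96 and −1.30 and Gli3 −0.20, −0.39 and −1.09.

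Among the cilium genes, the long dynein heavy chain of intraflagellar transport, Dync2h1, had −2.43, −2.38 and −2.23 in the mesoderm and −4.69, −4.04 and −1.68 in FL. Its difference was 1.12 (95% confidence interval −0.40 to 2.64), and 2.02 without FL replicate 3 (limma adjusted p = 0.0036). Ift27 and Ift20, small proteins of the transport particle, went the other way, with differences of −0.71 (−1.45 to 0.03) and −0.66 (−1.73 to 0.40). With FL replicate 3 left out, 7 of the 17 members (41.2%) were called higher in the mesoderm and 2 (11.8%), Ift20 and Ift27, higher in FL, against 7.23% and 6.05% of all genes.

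Hox genes encode transcription factors that give positional identity along the body and limb axes, and 16 of them carried a symbol. Their median log2 TE was −1.32, −0.81 and −1.22 in the mesoderm and −1.21, −0.95 and −1.06 in FL, so that all 6 pairs were close. Below the median in all 6 pairs were 10 of the 16. Members differed from each other in direction, with 7 positive and 9 negative differences.

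Hoxd4 had the largest difference of all genes with a symbol that were apart in every pair with enough reads (GRCm38 chr2:74711929-74729160, plus strand). Its log2 TE was −1.36, −0.28 and −1.18 in the mesoderm and −3.04, −3.66 and −2.70 in FL, and the 3 FL pairs, FL replicate 3 included, lay well below the mesoderm. The difference was 2.20 (95% confidence interval 1.27 to 3.12, unadjusted p = 0.000475, limma adjusted p = 0.765). It came from 396, 493 and 248 Ribo-Seq reads in the mesoderm and 32, 15 and 44 in FL, while normalized RNA-Seq reads were 427.8, 407.1 and 428.2 in FL. In NT, its log2 TE was −1.00, −0.61 and −0.73, near that of the mesoderm.

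Hoxa5 showed the same order (GRCm38 chr6:52201754-52204587, minus strand). Its log2 TE was −1.01, −0.12 and −0.57 in the mesoderm and −2.71, −1.97 and −1.76 in FL, a difference of 1.58 (95% confidence interval 0.75 to 2.41, limma adjusted p = 0.765) on 50, 50 and 97 Ribo-Seq reads in FL. Hoxd3, the neighbour of Hoxd4 in its cluster, had −2.29, −1.18 and −1.68 against −2.26, −2.22 and −2.82, which overlapped.

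Other Hox genes had higher values in FL, though 0 of the 16 passed the test. Hoxb2 had −1.32, −1.35 and −1.50 in the mesoderm and −1.06, 0.51 and −0.37 in FL, a difference of −1.08 (SE 0.40, limma adjusted p = 0.765) with no overlap. Hoxc4 had −0.74, 0.24 and −0.16 against 1.29, 1.03 and −0.07, with a difference of −0.97 (−1.92 to −0.01). Hoxd11 and Hoxd13, expressed in the distal limb, lay at −0.57 and −0.64, again with no overlap; Hoxd13 had −1.14, −1.61 and −1.25 against −0.68, −0.54 and −0.86 on 2494 to 3677 Ribo-Seq reads in FL. Hoxa9 was alike, at −0.96, −0.44 and −1.19 against −1.08, −0.73 and −0.98. Without FL replicate 3, Hoxa5 and Hoxd4 were called higher in the mesoderm and Hoxc4 and Hoxc6 higher in FL. FL as a dissected bud and the mesoderm as a sorted mixture hold Hox-expressing cells in different proportions, and a difference in TE between cell types and one within a cell type cannot be told apart.

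**Figure D3:**
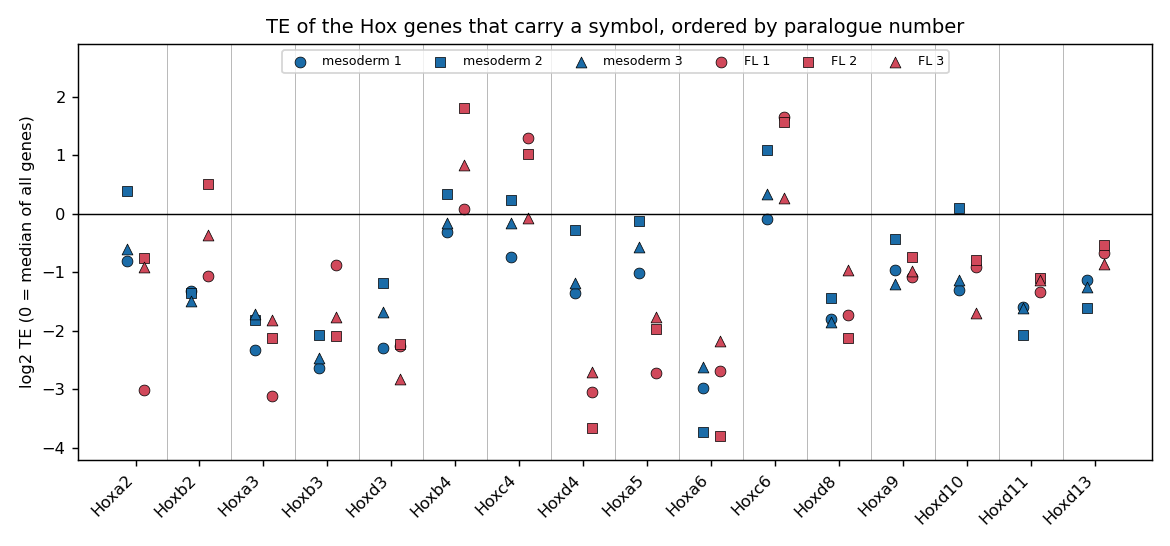
Log2 TE of the 16 Hox genes with a symbol in each mesoderm (blue) and FL (red) pair, ordered by paralogue number; 0 is the median of all genes. The 3 FL values of Hoxd4 and Hoxa5 lie below the 3 mesoderm values, and those of Hoxb2, Hoxd11 and Hoxd13 lie above.

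Genes of mitochondrial energy metabolism had high TE in both tissues. Respiratory chain and ATP synthase subunits, most of them small proteins, had a median log2 TE of 0.94, 1.48 and 1.13 in the mesoderm and 2.20, 2.24 and 1.01 in FL over 41 members. Above the median in all 6 pairs were 39 of the 41. The median difference was −0.62, and 40 of 41 differences were negative. Mitochondrial ribosomal proteins and import factors were similar, with 0.78, 1.56 and 0.97 against 2.13, 2.22 and 0.93 over 49 members, a median difference of −0.56 and 49 of 49 negative. Most members are in these lists because of a high TE in some tissue. Without FL replicate 3 the medians were −1.00 and −0.99, and 21 members of each list (51.2% and 42.9%) were called higher in FL, against 6.05% of all genes, with 1, Ndufs1, called higher in the mesoderm.

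Some members were apart in every pair. Uqcr10, a subunit of complex III, had −0.19, 0.57 and 0.27 in the mesoderm and 1.73, 1.76 and 1.14 in FL, with a difference of −1.33 (95% confidence interval −2.01 to −0.65, limma adjusted p = 0.765). Cox6c, a subunit of cytochrome oxidase, had 0.65, 0.72 and 0.97 against 2.16, 2.07 and 1.13. Uqcrh, of complex III as well, had 0.06, 0.07 and 0.41 against 1.22, 1.22 and 0.52. Mrpl51, of the mitochondrial ribosome, had the largest difference at −1.72 (−2.84 to −0.61), but on only 10, 18 and 41 Ribo-Seq reads in the mesoderm and 35, 38 and 61 in FL. Ndufs1, a large subunit of complex I, was the only member with a positive difference, at 0.52 (−0.60 to 1.64), which was 1.13 without FL replicate 3.

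Cytosolic ribosomal proteins lay between these groups. Their mRNAs carry a terminal oligopyrimidine tract through which growth signals are known to set translation. The median log2 TE of the 31 members was 0.12, 1.02 and 0.53 in the mesoderm and 1.12, 1.06 and −0.07 in FL. The mesoderm pairs lay between the extremes of FL. In either direction 0 members were apart, against 4.33% of all genes above FL in the mesoderm and 6.45% below. The median difference was −0.16 and −0.54 without FL replicate 3. In that fit 0 members were called higher in the mesoderm and 1 (3.23%) in FL, against 7.23% and 6.05% of all genes. Rplp1, of the ribosomal stalk, had −0.48, 0.02 and −0.17 against 0.76, 0.81 and −0.35, a difference of −0.61 (95% confidence interval −1.44 to 0.21), and of −0.99 without FL replicate 3. The most positive member with enough reads, Rps19, had a difference of 0.34 (−0.71 to 1.39), which turned to −0.17 without FL replicate 3. Ribosomal protein genes have many near-identical copies, and only uniquely mapped reads were counted, so levels and ratios of single members are uncertain.

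Lists with low TE in both tissues formed the other end. Chromatin regulators had a median log2 TE of −1.70, −2.05 and −1.56 in the mesoderm and −2.61, −2.56 and −1.07 in FL over 43 entries, of which 41 were below the median in all 6 pairs and 25 TE-low in both tissues. Kinesins, dyneins and myosins, the motors of the cytoskeleton, had −1.48, −1.87 and −1.43 against −2.52, −2.45 and −0.84 over 30 members, with 29 below the median in all 6 pairs. Matrix proteins, cadherins and integrins had −0.86, −1.64 and −0.98 against −2.34, −2.32 and −0.62 over 15 members. In all 3 lists FL replicates 1 and 2 were below every mesoderm pair and FL replicate 3 above. The median differences were 0.45, 0.40 and 0.46, and without FL replicate 3 they were 0.94, 1.01 and 1.04, with 19, 12 and 7 members (44.2%, 40.0% and 46.7%) called higher in the mesoderm and 0 in FL, against 7.23% and 6.05% of all genes.

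Most of the members named here overlapped between tissues. Kmt2b, a histone H3 lysine 4 methyltransferase, had −2.99, −2.90 and −1.96 in the mesoderm and −2.77, −2.84 and −1.30 in FL. Ezh1, of Polycomb repressive complex 2, had −1.76, −1.98 and −1.79 against −5.23, −3.19 and −1.45, with a difference of 1.45 (95% confidence interval −0.39 to 3.29) on 10, 28 and 146 Ribo-Seq reads in FL. Without FL replicate 3 it was 2.37 (limma adjusted p = 0.0121). Kif20b, a kinesin of cell division, had a difference of 1.27 (−0.00 to 2.53), and of 1.91 without FL replicate 3 (limma adjusted p = 0.0068). Fat3, a giant cadherin, had −0.86, −1.67 and −0.76 against −3.60, −3.35 and −0.67, a difference of 1.44 that was 2.37 without FL replicate 3 (limma adjusted p = 0.0028). Itgb8, an integrin that activates latent TGFβ, was apart in every pair, with −0.60, −0.24 and −1.13 against −2.34, −2.53 and −1.85 and a difference of 1.58 (0.65 to 2.52, limma adjusted p = 0.765), and of 1.78 without FL replicate 3 (limma adjusted p = 0.0171).

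Zfp genes, zinc finger proteins of which many bind DNA, were of low TE with 89 of 104 below the median in all 6 pairs. Their median log2 TE was −1.44, −1.54 and −1.20 in the mesoderm and −1.90, −2.01 and −1.20 in FL, and the median difference was 0.28. Here 11 members (10.6%) were wholly above FL in the mesoderm and 4 (3.85%) wholly below, against 4.33% and 6.45% of all genes. Zfp949 had −1.50, −2.38 and −1.95 against −3.61, −4.43 and −3.36, a difference of 1.86 (95% confidence interval 0.75 to 2.97), on a mean of 40 normalized Ribo-Seq reads in the mesoderm and 53 in FL. Zfp428 went the other way, with −0.56, 0.17 and −0.44 against 1.39, 1.78 and 0.56 and a difference of −1.51 (−2.35 to −0.68). Leaving out FL replicate 3, these differences were 2.08 and −1.86 (limma adjusted p = 0.0199 and 0.0036), and 16 members (15.4%) were called higher in the mesoderm and 7 (6.73%) in FL, against 7.23% and 6.05% of all genes. Many Zfp genes share near-identical finger sequences, so their unique reads cover less of the CDS.

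**Figure D4:**
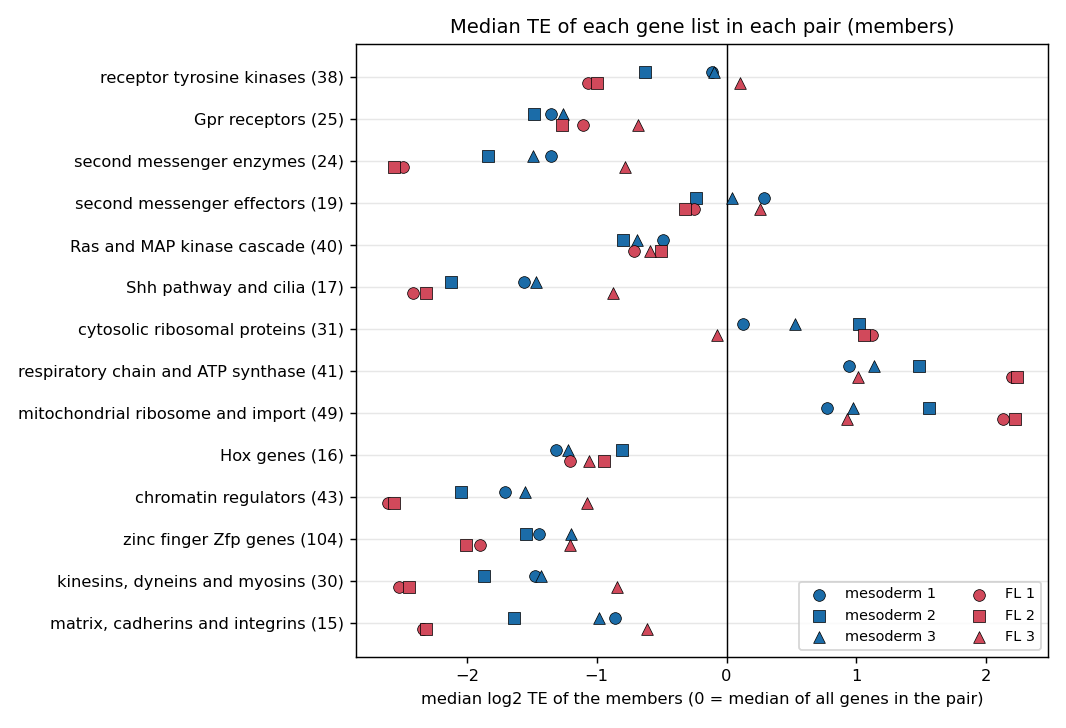
Median log2 TE of the members of each list (number of members in parentheses) in each mesoderm (blue) and FL (red) pair. For second messenger enzymes, chromatin regulators, motors and matrix genes FL 1 and FL 2 lie left of all mesoderm pairs and FL 3 lies right of them, while Hox genes and the Ras and MAP kinase cascade show all pairs close together.

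Small regulators of cell death and of Notch signalling had TE above the median. Bad and Bax, which promote apoptosis at the mitochondrion, had 0.16, 0.88 and 0.41 and 0.24, 0.80 and 0.47 in the mesoderm. In FL they had 1.66, 1.69 and 0.51 and 1.56, 1.50 and 0.42. Their differences were −0.80 (95% confidence interval −1.66 to 0.05) and −0.65 (−1.45 to 0.15), and that of Bid, which links death receptors to this step, was −0.80 (−1.74 to 0.13). Hes1, a transcriptional repressor induced by Notch, had 0.40, 1.43 and 0.88 against 2.11, 2.62 and 1.12, a difference of −1.05 (−2.01 to −0.09). Each of these genes overlapped between tissues, and without FL replicate 3 Bad, Bax and Hes1 were called higher in FL, with differences of −1.19, −1.02 and −1.47 (limma adjusted p = 0.0131, 0.0134 and 0.0085).

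Since no gene passed the test, the genes with a symbol that were apart in every pair and had enough reads were ranked by difference after their values were seen. Of 2909 genes with enough reads 320 (11%) were apart in one direction or the other, a share near that over all genes (4.33% and 6.45%). Beyond those named above, the largest towards the mesoderm was Cenpf, a kinetochore protein of dividing cells, with −0.21, 0.37 and −0.21 in the mesoderm and −2.12, −2.25 and −0.35 in FL. Towards FL, Il17d, a cytokine of the interleukin 17 family (GRCm38 chr14:57524777-57543166, plus strand), had −1.48, −1.07 and −1.13 in the mesoderm and 0.43, 0.84 and 0.45 in FL. Its difference was −1.80 (95% confidence interval −2.59 to −1.02, limma adjusted p = 0.765), with 11, 33 and 37 Ribo-Seq reads in the mesoderm and 122, 122 and 93 in FL. Ctnnbip1, an inhibitor of β-catenin, had 0.28, 0.54 and −0.00 against 2.08, 2.15 and 1.21. Emc6, of the membrane protein insertion complex of the endoplasmic reticulum, had −1.13, −0.37 and −0.48 against 1.16, 1.14 and 0.33. For Hoxd4, Il17d and Emc6 the values of FL replicate 3 were on the same side as those of FL replicates 1 and 2, and the difference without that pair was 2.41, −1.86 and −1.80.

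TE differed with the length of the CDS, and by a different amount in each pair. Over the 140 signalling genes with a CDS length in the annotation (95.9% of 146), the Pearson correlation of log2 TE with log2 CDS length was −0.18, −0.37 and −0.23 in the mesoderm and −0.49, −0.48 and −0.05 in FL. Among the 47 members of longest CDS (2958 to 6888 nt), median log2 TE was −0.57, −1.39 and −0.86 in the mesoderm and −1.74, −1.72 and −0.32 in FL. Among the 47 shortest (447 to 1653 nt) it was −0.26, −0.31 and −0.37 against −0.07, −0.09 and −0.22, so that pairs hardly differed there. The difference between tissues correlated with log2 CDS length with r = 0.38, and with r = 0.55 without FL replicate 3, where 14 of the 47 longest, 5 of the 46 middle and 0 of the 47 shortest members were called higher in the mesoderm. Called higher in FL were 0, 0 and 2 of these members, and the shares over all genes were 7.23% and 6.05%. Genes share libraries, so these correlations describe the pairs and carry no test. The part of this relation in the differences between mesoderm and FL was not tested over all genes, since only 27.5% of them had a CDS length.

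**Figure D5:**
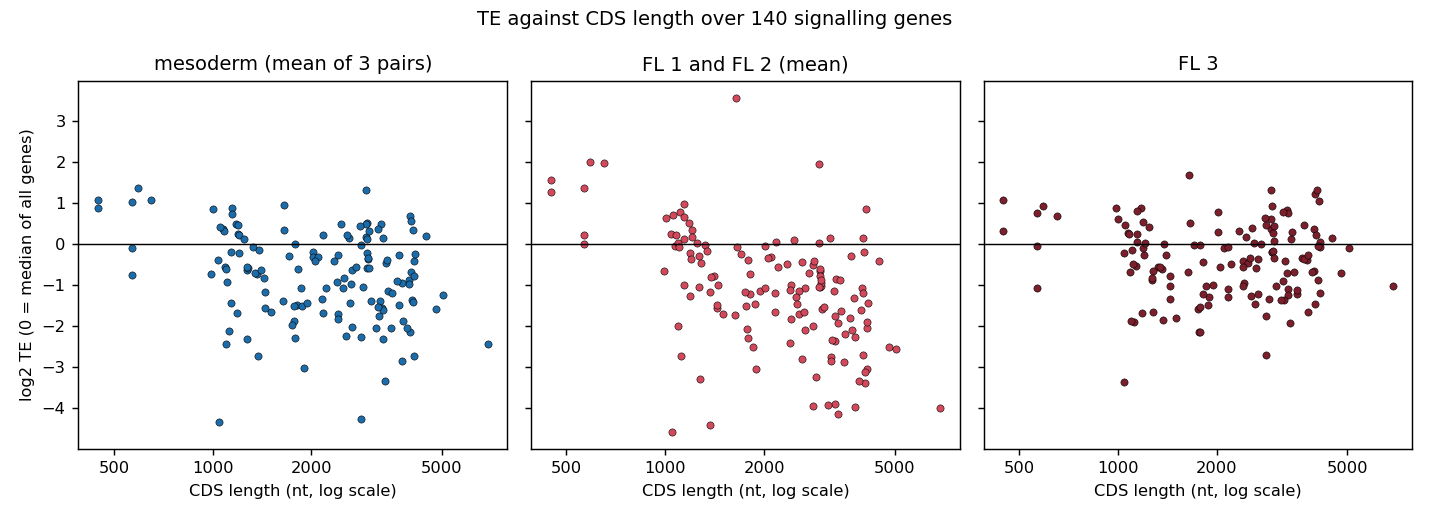
Log2 TE of 140 signalling genes against the length of their CDS (log scale) in the mesoderm, in FL 1 and FL 2, and in FL 3. The decline with length is steepest in FL 1 and FL 2, where the longest members have medians of −1.74 and −1.72, and is not seen in FL 3.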

How the data were processed

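Ribo-Seq and RNA-Seq libraries of mesoderm and FL (3 replicates each) were analysed. Per the labels and the methods of the study, the authors trimmed reads with cutadapt, removed rRNA, tRNA and snRNA reads, aligned the rest to canonical UCSC known genes of mm10 with Bowtie2, kept unique reads, assigned RPFs by the A site and counted CDS reads, leaving out 15 codons at the start and 5 at the end. The deposited values are a signal, reads divided by the DESeq effective library size of each table. In each library the values checked, which left out the highest ones, were all whole multiples of 1 step (tolerance 0.0051 normalized reads). Dividing all values by this step and rounding gave back whole reads and the depth.

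Log2 TE per pair was computed with a pseudocount of 1, which understates changes of genes with few reads. Per the methods, sorted mesoderm cells were split for Ribo-Seq and RNA-Seq. For FL this is not stated, and libraries were paired by the replicate number in the labels. Deviations from the group means correlated within a pair with r = 0.75, 0.59 and 0.60 in the mesoderm and 0.06, 0.12 and 0.09 in FL. Differences were tested with limma 3.58.1 (R 4.3.3) with a variance trend on mean log2(RPF + 1) and Benjamini-Hochberg adjustment over all 11054 genes. Nothing states that mesoderm replicates come from separate litters, so p-values measure the spread between these samples. edgeR 4.0.16 and DESeq2 1.42.0 were run on the recovered reads as alternatives. All fits were tested on simulated data. At a spread estimated from all these libraries, FL replicate 3 included, limma recovered only part of the changed genes. The simulated fit without FL replicate 3 recovered fewer still. It kept the spread of that pair and drew Ribo-Seq and RNA-Seq reads independently. It therefore cannot tell how many genes the real fit without FL replicate 3 would recover. DESeq2 recovered more of the changed genes than limma but also called more unchanged genes. Python 3.11.15 with pandas 2.3.3, numpy 2.4.6, scipy 1.17.1 and matplotlib 3.10.9 was used for the rest.

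Symbols were known for 3230 of the shared genes (29.2%) through supplementary tables of the study, which mostly list genes it called, and 3043 matched 1 gene of GENCODE M21 (GRCm38), whose positions and CDS lengths can differ from the isoform counted. Genes named are, in each list, the 2 members with the largest difference in each direction among those with a mean of at least 100 RNA-Seq and 30 Ribo-Seq normalized reads in each tissue, a set of genes the study names, and, of called genes apart in every pair, the 8 with the largest difference in each direction, of which there were 0. Others were named after their values were seen. Some items are not reported here. The members and lists were chosen with earlier results of these data known. Alternatives were pseudocounts of 0.1 and 8, a filter, the centre, equal widths, pairing, other tools, thresholds, and leaving out each pair.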

Additional observations from a re-analysis of the deposited data

Results flagged for a closer look

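For Il17d and Emc6, all 3 mesoderm pairs lay below the median TE of their pair and all 3 FL pairs above it. The difference was −1.80 for Il17d (95% confidence interval −2.59 to −1.02) and −1.53 for Emc6. Neither difference passed the limma test over all genes (adjusted p = 0.765 for both). Without FL replicate 3, limma gave adjusted p = 0.00962 for Il17d and 0.00443 for Emc6. Such a pattern was found in 82 of 11054 genes (0.742%), 38 with the mesoderm above and 44 with FL above.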

How the results depend on the processing

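With all pairs kept, counts of genes called between tissues were 0 in each direction at pseudocounts of 0.1 and 8, a minimum of 100 normalized reads, a trimmed mean as centre, equal widths, no variance trend and edgeR, and 1 in each direction with DESeq2. Without the block that joins the Ribo-Seq and RNA-Seq libraries of a replicate (no replicate block) both counts were 0, with 175 genes at an unadjusted p under 0.05, and with a replicate block across tissues both were 0, with 746. Mesoderm and FL came from different embryos and share only a replicate number. Deviations of TE under the same number correlated with r = −0.43, 0.52 and 0.27, which cannot show whether the numbers form pairs. Leaving out each pair in turn gave 0 to 799 genes higher in the mesoderm and 0 to 669 higher in FL, all calls coming from leaving out FL replicate 3. In alternatives chosen after seeing the data, which leave that pair out as well, edgeR called 900 and 511 genes, equal widths 117 and 146, and a minimum of 100 normalized reads 753 and 586. TE-high genes numbered 61 to 236 in the mesoderm and 378 to 1391 in FL when each pair was left out. The difference of 10 of 67 genes changed sign without FL replicate 3, and that of 3 without mesoderm replicate 2. The cause was not tested. Genes with few Ribo-Seq reads, such as Mrpl51 and Il17d, are limited by depth.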
